A study of Mus musculus with 11 samples.

Results

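miR-132 and miR-212 are microRNAs (miRNAs) made from neighbouring hairpins of a single transcript, and each hairpin yields a 5p arm and a 3p arm. The 4 mature arms, mmu-miR-132-3p, mmu-miR-132-5p, mmu-miR-212-3p and mmu-miR-212-5p (named below without the mouse prefix), were chosen by name from the 1907 mature mouse miRNA names in the deposited count tables. All 4 were among the 479 miRNAs abundant enough to be tested. Small RNA was sequenced from the cortex of male Balb/cOlaHsd mice 3 days after surgery, with 1 library per sample. In 5 mice the left middle cerebral artery was closed for good by thermocoagulation (permanent occlusion, pMCAO), which models a stroke without reperfusion, and the labels name their tissue as peri-ischemic cortex, which borders the lesion core. In 6 sham mice the artery was exposed and lifted but not closed, and the labels name their tissue as cortex. Mice were 3 months old by the labels but 3 to 6 months old by the methods, brains were perfused before dissection, and neither source names a genetic change or a drug besides anaesthetics, although the names of the tables carry the word vehicle for both groups.

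Transcription of this cluster in neurons is driven by CREB, a transcription factor switched on by synaptic activity and by neurotrophins such as BDNF. A miRNA binds messenger RNAs mainly through its seed, the bases from position 2 to position 8, and lowers their stability or translation. miR-132 is known for promoting the growth of dendrites and spines. Neither the labels nor the methods name a deliberate stimulation or silencing of this tissue, or a recording of its activity. The response of the cluster to activity was therefore not measured.

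The mature sequences show which arms can recognise the same targets. They are those of RefSeq on mouse build GRCm38.p6, where all 4 lie on the plus strand of chromosome 11, and capitals mark the seed.

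miR-132-3p: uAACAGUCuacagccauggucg

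miR-212-3p: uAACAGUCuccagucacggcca

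miR-132-5p: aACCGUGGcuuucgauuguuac

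miR-212-5p: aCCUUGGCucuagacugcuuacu

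The 3p arms share the seed AACAGUC, and among 1738 mature mouse names in the table only these 2 names carry it. They are identical over the first 9 bases and at 17 of 22 positions. Counted from the 5′ end, with the base of miR-132-3p first and that of miR-212-3p last, they differ by A10C, C14U, U17C, U20C and G22A. Any window of 20 bases, the shortest read kept, holds at least 4 of these differences. The 5p arms have seeds that no other mouse miRNA of the table carries, and the longest run of bases they share with each other is 5. By their seeds the cluster therefore holds 1 pair with a common seed and 2 single arms.

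The hairpins are printed to show where the arms sit in each precursor, with the mature arms in capitals, the 5p arm first.

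Mir212: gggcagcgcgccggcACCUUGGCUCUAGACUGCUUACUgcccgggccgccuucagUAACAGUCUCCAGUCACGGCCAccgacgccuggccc

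Mir132: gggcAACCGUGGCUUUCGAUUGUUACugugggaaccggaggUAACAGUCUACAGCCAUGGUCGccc

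Mir212 lies at chr11:75173388-75173478 and Mir132 at chr11:75173682-75173747, so that 203 bases separate them, with Mir212 upstream. Both lie in intron 1 of the non-coding gene 1700016P03Rik (ENSMUSG00000085609.1, a processed transcript), between its exon 1, which ends at 75172597, and its exon 2, which starts at 75173978. The host transcript starts 828 bases before Mir212. Within the hairpins, miR-212-5p runs from 75173403 to 75173425, miR-212-3p from 75173443 to 75173464, miR-132-5p from 75173686 to 75173707 and miR-132-3p from 75173723 to 75173744.

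Depth differed between the groups before any member was compared. The sham libraries held 1429037 to 2319810 counts (median 1640690) and the pMCAO libraries 744877 to 1411620 (median 1212276), so that the deepest pMCAO library was shallower than any sham library (two-sided exact permutation test on log2 totals, p = 0.00216, which is the lowest possible with these group sizes). Labels name no batch, and depth and surgery cannot be told apart by design. Levels below are given as CPM, counts brought to a common library total and scaled by trimmed means of M values (TMM), and thinning every library to the smallest total was used to set the groups at equal depth. The edgeR quasi-likelihood test called 34 of 479 miRNAs different at an adjusted p under 0.05 (7.1%), 21 higher and 13 lower in pMCAO. Nothing states whether the samples share litters or surgery days, so the p-values measure only the spread between these libraries.

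miR-132-3p, the main functional arm of its hairpin, was lower in pMCAO cortex than in sham cortex, whereas the other arms did not pass the test. miR-132-3p fell by 25.6% (95% interval -37.3% to -11.6%), the estimates for miR-132-5p and miR-212-3p were -15.0% and -14.6% with adjusted p-values over the threshold, and miR-212-5p was rare in both groups. Of the 4 arms 1 was called lower, against 2.71% of all tested miRNAs called lower, and 0 were called higher. The arms had negative log2 fold changes in 3 of 4 cases, with a median of -0.23. The median of all 479 miRNAs was 0.0015, and 238 of them (49.7%) were negative. That background was not matched to the arms by level. Most of the 97 miRNAs with a mean of at least 1000 CPM, the level of the 3 negative arms, were negative as well.

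The levels of the 4 arms in sham cortex spanned more than 2 orders of magnitude. miR-132-3p stood at 8599 ± 1241 CPM (SD, n = 6) and ranked 26 of all 1907 names by mean level. miR-212-3p followed at 3789 ± 300.4 CPM and rank 46, and miR-132-5p at 3101 ± 423 CPM and rank 50. The order of miR-212-3p over miR-132-5p held in every sham library, by a margin that was smaller than 1 SD of miR-132-5p in sham replicate 4 alone. miR-212-5p was rare, at 24.8 ± 6.56 CPM and rank 368. In pMCAO cortex the order was the same, with ranks of 33, 46, 53 and 373, although miR-132-5p was slightly above miR-212-3p in pMCAO replicate 5. Together the 4 arms took 1.29% to 1.76% of all counts in sham, with a mean of 1.47 ± 0.219% (SD, n = 6). In pMCAO they took 1.21% to 1.37%, with a mean of 1.31 ± 0.0582% (SD, n = 5), so the ranges overlapped.

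In sham cortex miR-132-3p ran from 7065 CPM through a median of 8956 CPM to 10194 CPM. In pMCAO replicates 1 to 5 it stood at 6427, 5508, 6996, 6261 and 6811 CPM, with a mean of 6401 ± 579 CPM (SD, n = 5). Every pMCAO library was below every sham library, but the highest pMCAO value, in replicate 3, was only just under the lowest sham value, in replicate 1. Such a separation with pMCAO below was seen for 3.34% of the 479 miRNAs. The log2 fold change was -0.43 (standard error 0.12, 95% interval -0.67 to -0.18), with an adjusted p of 0.0412 in the edgeR quasi-likelihood test with Benjamini-Hochberg adjustment. In a two-sided exact permutation test on log2(CPM + 1) the p was 0.0108, since 1 of 462 arrangements of the libraries was as low and 4 were as far in the other direction. Among the 13 miRNAs called lower, miR-132-3p ranked 4 by sham level but 11 by the size of its decrease, so it combined a high level with a small change.

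**Figure D1:**
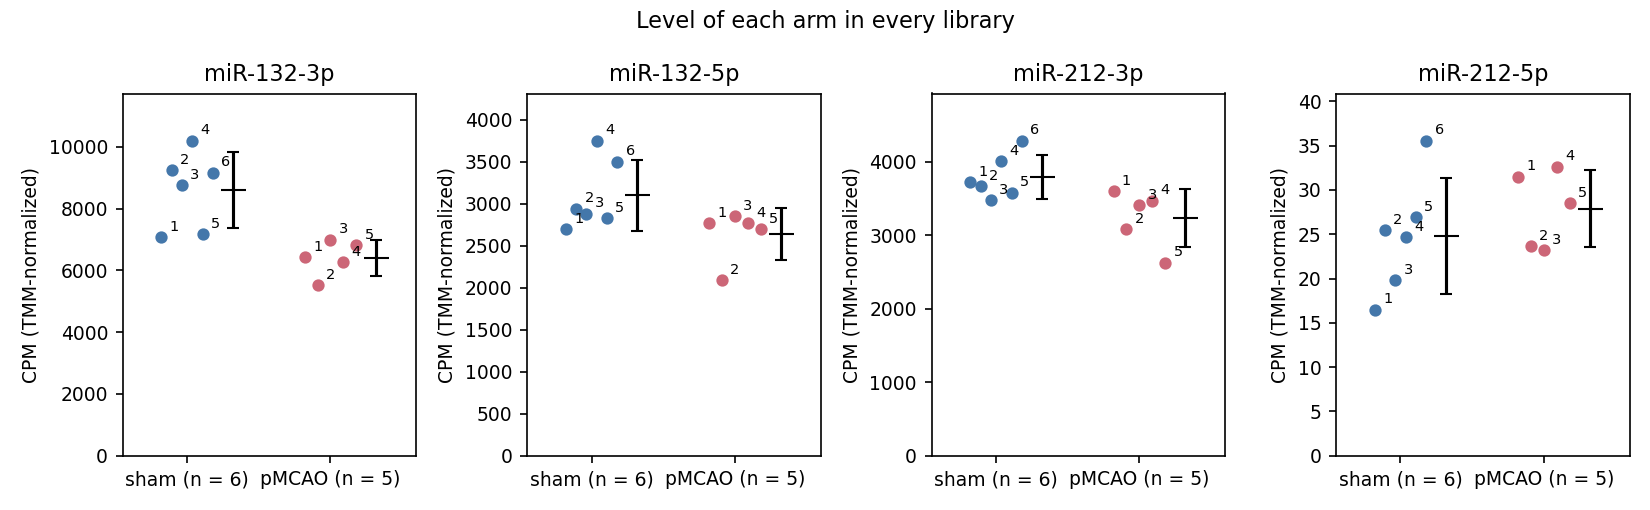
Level of each arm in every library, in TMM-normalized CPM on a linear axis from 0, with 1 point per library numbered by replicate, and the mean and SD of each group at the right of its points. The miR-132-3p points of the 5 pMCAO libraries all sit below the 6 sham points, the highest at 6996 and the lowest sham point at 7065 CPM, whereas the groups overlap for the other 3 arms.

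The call of miR-132-3p sat close to its threshold. It was lost in 8 of 11 fits that each left out 1 library, with log2 fold changes of -0.46 to -0.34 and adjusted p-values of 0.0309 to 0.145, and it held only without sham replicate 1, sham replicate 5 or pMCAO replicate 3. pMCAO replicate 2 had the lowest level of miR-132-3p and also the highest summed level of the myeloid list, and without it the log2 fold change was -0.34 (edgeR, adjusted p = 0.145). The call held with DESeq2, with edgeR's robust fit and with DESeq2's size factors, and was lost in the other 6 settings tried, among them the thinned libraries (log2 fold change -0.39, adjusted p = 0.0694 in edgeR). The direction was negative in every fit.

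The scaling of the libraries set how large the difference appeared. TMM factors were 0.86 to 1.04 in sham and 1.03 to 1.14 in pMCAO libraries. As a plain percent of counts miR-132-3p took 0.674% to 0.988% in sham and 0.6255% to 0.745% in pMCAO, and these ranges overlapped. With total counts as the only scaling its log2 fold change was -0.25 (edgeR, adjusted p = 0.188), while the median of all tested miRNAs moved from 0.0015 to 0.18. Relative to that median the difference was -0.43 under both scalings. A change of scaling shifts all miRNAs nearly alike, so this agreement does not show which scaling is right.

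**Figure D2:**
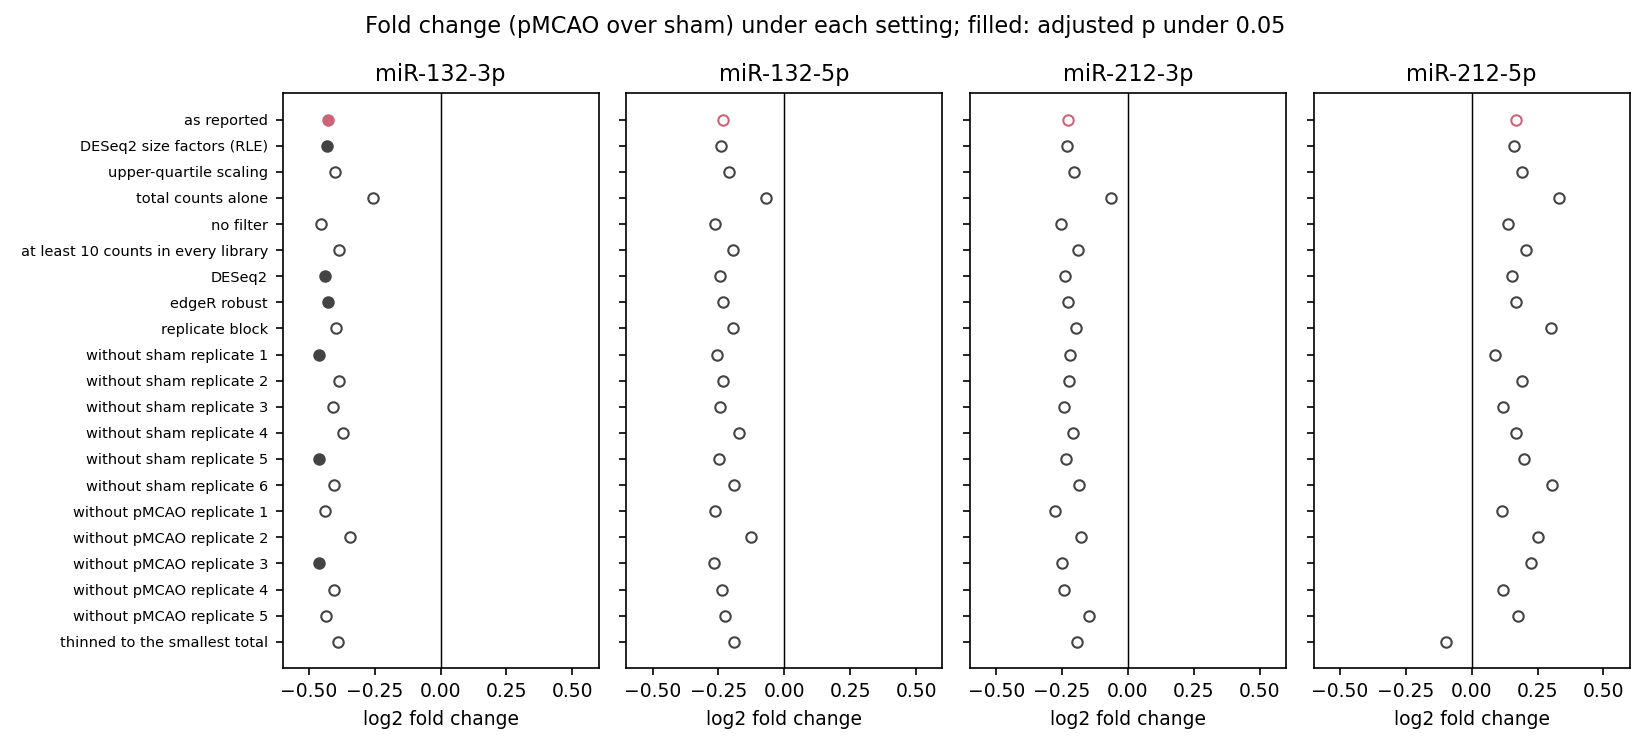
Log2 fold change (pMCAO over sham) of each arm as reported (red) and under each other setting, including each fit without 1 library; filled points have an adjusted p under 0.05. All miR-132-3p points lie left of 0, from -0.46 to -0.25, with few of them filled, and the miR-212-5p point of the thinned libraries lies on the other side of 0 from the rest.

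miR-132-5p, the other strand of the same hairpin, ran in sham cortex from 2695 CPM through a median of 2914 CPM to 3751 CPM. In pMCAO replicates 1 to 5 it stood at 2773, 2089, 2856, 2770 and 2695 CPM. All 5 pMCAO libraries were below the sham median, but replicates 1, 3 and 4 lay within the sham range and replicate 5 at its lower edge, so the groups overlapped. The log2 fold change was -0.23 (standard error 0.12, 95% interval -0.49 to 0.024), with an adjusted p of 0.250 in the edgeR quasi-likelihood test. Without pMCAO replicate 2, the lowest library, it was -0.13. As a percent change the interval reaches from -28.9% to 1.71%, so a decrease as large as that of miR-132-3p was not excluded.

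miR-212-3p, which shares the seed of miR-132-3p, ran in sham cortex from 3479 CPM through a median of 3696 CPM to 4284 CPM. In pMCAO replicates 1 to 5 it stood at 3603, 3078, 3411, 3468 and 2625 CPM. Of the 5 pMCAO libraries 4 were below the lowest sham library, and replicate 1 lay within the sham range. The log2 fold change was -0.23 (standard error 0.11, 95% interval -0.45 to -0.00050), with an unadjusted p of 0.0496 and an adjusted p of 0.203 in the edgeR quasi-likelihood test. An unadjusted p under 0.05 with a lower level in pMCAO was found for 11.5% of the 479 miRNAs. The exact permutation test gave p = 0.0130 (two-sided, unadjusted). Without pMCAO replicate 5, the lowest library, the log2 fold change was -0.15, and with total counts as the only scaling it was -0.063, or -0.24 relative to the median of all miRNAs. The library that was lowest for miR-212-3p, pMCAO replicate 5, was not the one that was lowest for both arms of Mir132, replicate 2.

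miR-212-5p was counted 26 to 60 times per sham library, 243 times in all, and 20 to 44 times per pMCAO library, 164 times in all. In sham cortex it ran from 16.5 CPM through a median of 25.0 CPM to 35.6 CPM. In pMCAO replicates 1 to 5 it stood at 31.5, 23.6, 23.2, 32.6 and 28.5 CPM. Every pMCAO value lay within the sham range. The log2 fold change was 0.17 (standard error 0.21, 95% interval -0.28 to 0.62), with an adjusted p of 0.711 in the edgeR quasi-likelihood test. Exact 95% Poisson intervals of the single counts reached 26.2% to 46.7% of the count to either side, and those of the group sums 12.8% in sham and 15.6% in pMCAO, which covers counting error only. As a percent change the 95% interval of the edgeR fit reaches from -17.9% to 53.7%, and the estimate of -25.6% for miR-132-3p lies outside it. The interval of miR-132-3p itself (-37.3% to -11.6%) overlaps it, and the difference between these arms was not tested. Leaving out 1 library at a time gave log2 fold changes of 0.087 to 0.30.

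The spread between libraries was like that of other abundant miRNAs. The coefficient of variation of miR-132-3p was 14.4% in sham and 9.04% in pMCAO libraries, that of miR-132-5p was 13.6% and 11.8%, and that of miR-212-3p was 7.93% and 12.1%. Over the 97 miRNAs with a mean of at least 1000 CPM the median was 12.7% in sham and 14.6% in pMCAO. miR-212-5p varied more in sham libraries, at 26.4% against 15.6% in pMCAO.

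Ratios of counts within a library do not depend on how libraries are scaled, and they were used to compare the arms with one another. In both hairpins the ratio of the 3p arm to the 5p arm was lower in pMCAO cortex, by a margin at the edge of the test. In sham libraries 2.53 to 3.14 counts of miR-132-3p (median 2.67) were found for each count of miR-132-5p. The ratio in pMCAO replicates 1 to 5 was 2.32, 2.64, 2.45, 2.26 and 2.53. Only replicate 2 of the pMCAO libraries lay within the sham range, and replicate 5 fell just below it. The mean log2 ratio fell from 1.47 ± 0.127 (SD, n = 6) to 1.28 ± 0.0904 (SD, n = 5), a difference of -0.19 (two-sided exact permutation test, p = 0.0238, adjusted p = 0.0491 over 4 ratios). The 3p arm made up 73.4 ± 1.70% of the Mir132 counts in sham and 70.9 ± 1.29% in pMCAO.

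For Mir212 the 3p arm made up nearly all counts, with 99.35 ± 0.137% in the 6 sham and 99.14 ± 0.153% in the 5 pMCAO libraries (mean ± SD). In sham libraries 119 to 222 counts of miR-212-3p (median 151) were found for each count of miR-212-5p. Among pMCAO replicates 1 to 5 it was 112, 127, 144, 105 and 91.1. Replicates 2 and 3 of the pMCAO libraries lay within the sham range and the other 3 below it. The difference of the mean log2 ratio was -0.43 (two-sided exact permutation test, p = 0.0368, adjusted p = 0.0491 over 4 ratios). This ratio rests on the few counts of miR-212-5p. After thinning to the smallest total its difference ranged from -0.81 to -0.19 over 100 draws, with a mean of -0.42 and an adjusted p under 0.05 in 18 draws.

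Across the hairpins, miR-132-3p was counted 1.90 to 2.55 times as often as miR-212-3p in sham libraries, with a median of 2.32. In pMCAO replicates 1 to 5 the ratio was 1.78, 1.79, 2.05, 1.81 and 2.59. The libraries of pMCAO stood at both ends of the joint range, with 3 below every sham library and replicate 5 above every one. The difference of the mean log2 ratio was -0.19 (two-sided exact permutation test, p = 0.165 before and after adjustment over 4 ratios). The ratio of the 5p arms differed by -0.43 in the mean log2 ratio (p = 0.0346, adjusted p = 0.0491 by the same exact permutation test), and it also rests on miR-212-5p. Mir132 gave 75.3 ± 2.13% of the counts of the cluster in sham and 73.4 ± 2.91% in pMCAO.

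**Figure D3:**
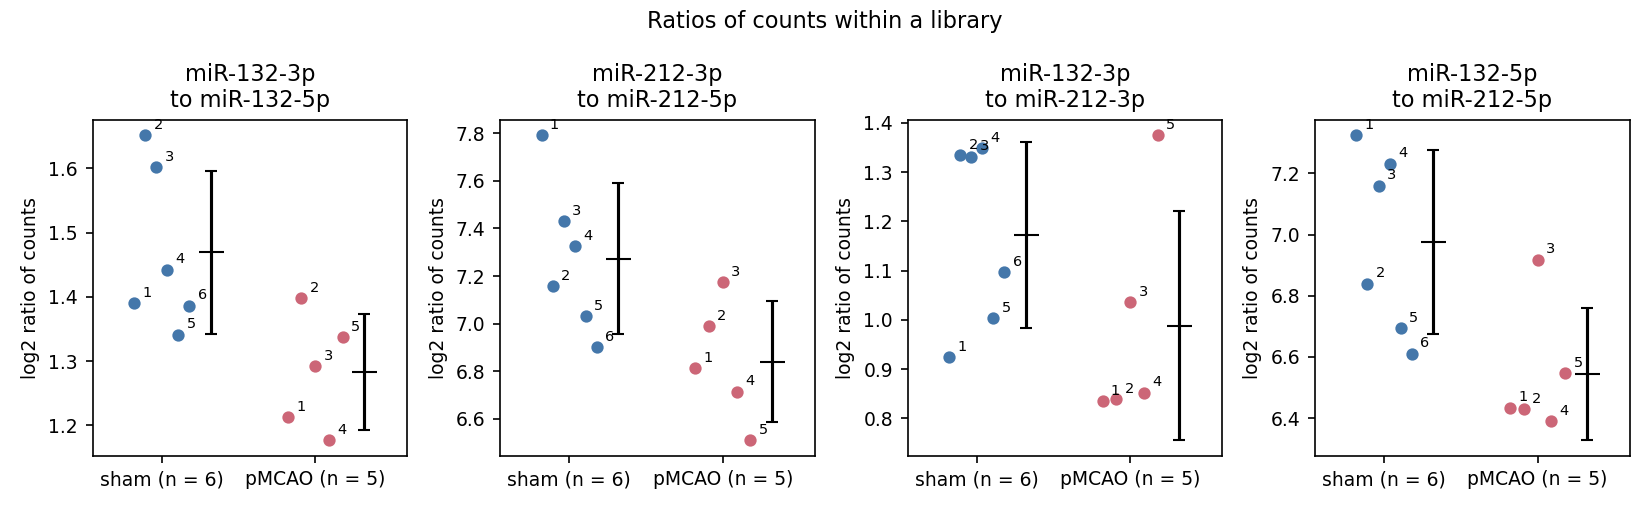
Log2 ratio of counts between arms in every library (1 point per library, numbered by replicate; mean and SD at the right of each group; axes do not start at 0). The pMCAO points are lower on average in each panel, by 0.19 to 0.43, and the ranges of the groups overlap in all 4.

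The 3 ratios with an adjusted p of 0.0491 were at the limit of the test. With each library left out in turn the ratio within Mir132 kept an adjusted p under 0.05 in 1 of 11 cases, and the ratio within Mir212 and that of the 5p arms in 2 of 11, while all differences stayed negative. After thinning to the smallest total the ratio within Mir132 differed by -0.22 to -0.16 over 100 draws, with an adjusted p under 0.05 in 19 of them.

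The arms of 1 hairpin also varied together across libraries. Over the 11 libraries log2(CPM + 1) of miR-132-3p and miR-132-5p had a Pearson r of 0.86 (permutation p = 6e-05, adjusted p = 0.00036 over the 6 pairs of arms) and a Spearman coefficient of 0.87 (permutation p = 0.00092, adjusted p = 0.00552). With the group means removed r was 0.82 over both groups together (permutation test, adjusted p = 0.0122). That test shuffled the deviations of both groups freely. It included pMCAO replicate 2, the lowest library for both arms, so it does not show that the relation held in each group. In the 6 sham libraries alone r was 0.81 (permutation test, adjusted p = 0.221). No value is given for the pMCAO libraries alone, since there were fewer than 6 of them. Without the 2 libraries farthest from the median of miR-132-3p, sham replicates 2 and 4, r was 0.84 (permutation test, adjusted p = 0.0194). The Spearman coefficient was then 0.78 and did not pass (permutation test, adjusted p = 0.107). This check kept pMCAO replicate 2, so the part of that library in the relation was not tested. Both arms share the scaling of their library, and with total counts as the only scaling r was 0.76 (permutation test, adjusted p = 0.0514). Under that scaling the Spearman coefficient was 0.51 (permutation test, adjusted p = 0.356).

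Arms of different hairpins were compared in the same way. miR-132-3p and miR-212-3p, which share a seed and a host transcript, had r = 0.61 and a Spearman coefficient of 0.72 over the 11 libraries (permutation tests, adjusted p = 0.0810 and 0.0498), and r = 0.21 with the group means removed (adjusted p = 0.533). miR-132-5p and miR-212-3p had r = 0.68 and a Spearman coefficient of 0.68 (permutation tests, adjusted p = 0.0810 and 0.0498), and r = 0.50 with the group means removed (adjusted p = 0.225). In the 6 sham libraries alone r was 0.47 for the first pair (permutation test, adjusted p = 0.403) and 0.80 for the second (permutation test, adjusted p = 0.221), the latter close to the 0.81 of the Mir132 arms. miR-212-5p had r = -0.04 with miR-132-3p, 0.25 with miR-132-5p and 0.08 with miR-212-3p over the 11 libraries, at a depth where counting error is large. With the group means removed these values were 0.35, 0.55 and 0.40, and in the sham libraries alone 0.42, 0.61 and 0.63 (permutation tests, adjusted p from 0.225 to 0.403).

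**Figure D4:**
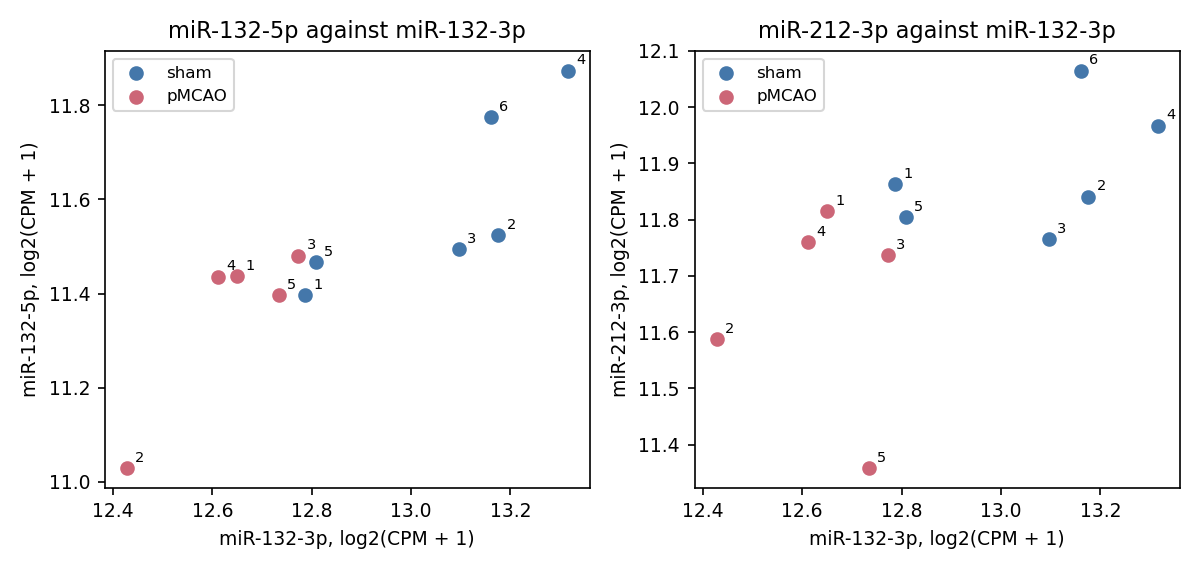
Level of miR-132-5p (left) and miR-212-3p (right) against that of miR-132-3p in every library, all as log2(CPM + 1), with sham in blue, pMCAO in red and replicate numbers beside the points. The arms of Mir132 rise together (r = 0.86), with pMCAO replicate 2 lowest for both, whereas pMCAO replicate 5 is lowest for miR-212-3p alone.

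The pattern most like that of miR-132-3p over the 11 libraries was sought among the other tested miRNAs by Pearson r of log2(CPM + 1), as a description. The closest 5 non-members were miR-379-5p (r = 0.885), miR-128-1-5p (0.879), miR-181c-3p (0.873), miR-181a-1-3p (0.872) and miR-181b-1-3p (0.870). All 5 had negative log2 fold changes, from -0.73 to -0.30. Since miR-132-3p separated the groups, choosing by r over both groups favours miRNAs lower in pMCAO, so this shared direction is no separate result. With the group means removed their r to miR-132-3p was 0.63 to 0.92. The highest of these was that of miR-181b-1-3p, which stood at only 8.02 CPM in sham and 5.17 CPM in pMCAO, where counting error is large. Among the 5 only miR-181a-1-3p was called lower (log2 fold change -0.58, standard error 0.13, adjusted p = 0.0148 in edgeR). With the members counted, miR-132-5p ranked 7, miR-212-3p ranked 57 and miR-212-5p ranked 264 by the same measure. The points share library, depth and scaling.

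Other miRNAs linked to neuronal activity or to the synapse were compared as a list of 18, none of them a member. Of these 18, 0 were called in either direction by the edgeR quasi-likelihood test, beside 34 of all 479 miRNAs (7.1%). A list of this size is too small for 0 calls to stand apart from that share. Negative log2 fold changes were found for 15, with a median of -0.14. Over all 479 the share was 49.7%, a background not matched to the list by level. The most abundant 3 were miR-124-3p, which maintains neuronal identity, miR-128-3p, a brain-enriched miRNA, and miR-29a-3p. miR-124-3p stood at 209811 ± 22259 CPM in sham (SD, n = 6) and 168631 ± 12682 CPM in pMCAO (SD, n = 5), and its log2 fold change was -0.32 (edgeR, standard error 0.09, adjusted p = 0.0523). The log2 fold change of miR-128-3p was -0.39 (edgeR, adjusted p = 0.201) and that of miR-29a-3p was -0.19 (edgeR, adjusted p = 0.537). miR-132-3p thus had an estimate of -0.43 beside -0.39 to 0.21 for the listed miRNAs, a difference that was not tested. Relative to total counts alone, the median of the list was 0.03 and 8 of 18 were negative, with the median of all miRNAs at 0.18.

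**Figure D5:**
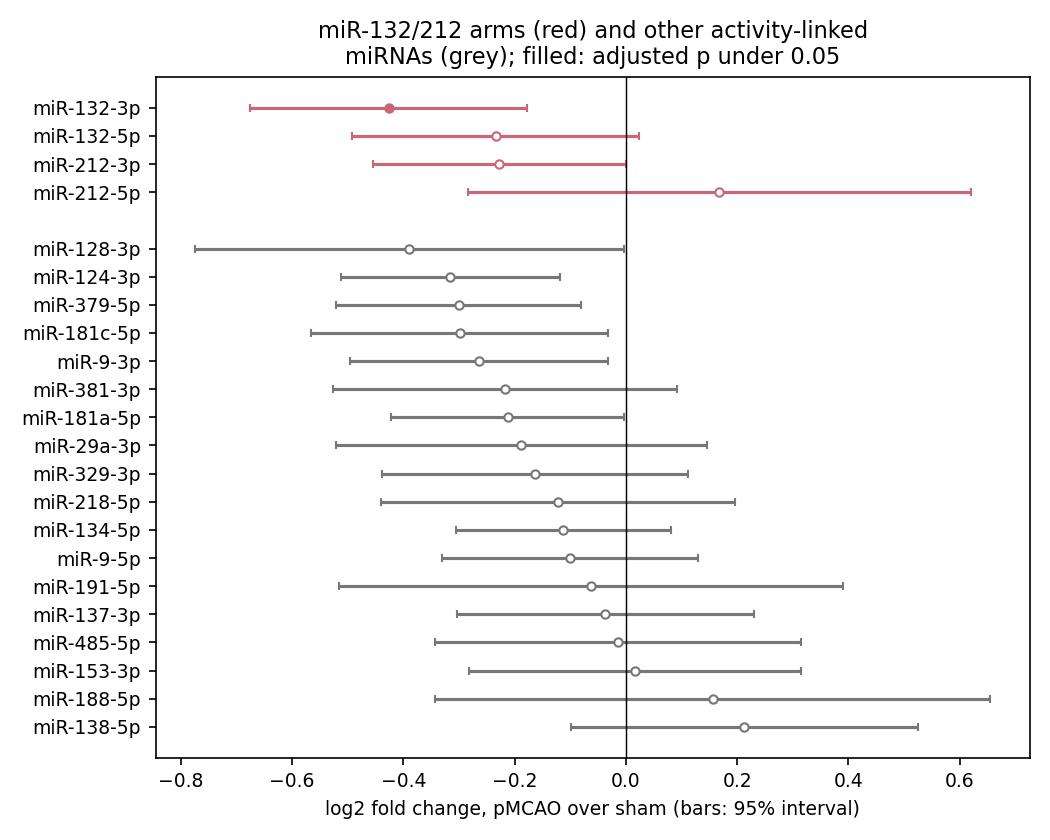
Log2 fold change (pMCAO over sham) with its 95% interval for the 4 arms of the cluster (red) and the 18 other activity-linked miRNAs (grey); a filled point has an adjusted p under 0.05. Only the point of miR-132-3p, at -0.43, is filled, and 15 of the 18 grey points lie left of 0.

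In bulk tissue fewer neurons and less of a miRNA per neuron cannot be told apart. Neuron-enriched miRNAs, a list of 9 led by miR-124-3p, summed to 343347 to 433332 CPM in sham and 293672 to 345709 CPM in pMCAO libraries. All 9 were detected, so the tissue carried neuronal markers, and the brain region was not tested. Of the 9 neuron miRNAs 8 were also in the activity-linked list, so the counts of both lists are not separate evidence. Of these 9, 0 were called in edgeR, beside 7.1% of all 479 miRNAs. Negative log2 fold changes were found for 6, beside 49.7% of all 479, with a median of -0.10 for the list. The ranges of their sum overlapped only through sham replicate 6.

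Relative to the summed counts of the neuron list, the differences of miR-132-3p, miR-132-5p and miR-212-3p were smaller than in TMM-scaled CPM and did not pass the test. miR-132-3p stood at 2.19 ± 0.313% of the neuron list in sham (SD, n = 6) and 1.93 ± 0.117% in pMCAO (SD, n = 5). The mean log2 ratio differed by -0.18 (two-sided exact permutation test, p = 0.106, adjusted p = 0.212 over 4 ratios), and the groups overlapped. It differed by -0.26 without miR-124-3p in the list and by -0.11 against miR-124-3p alone. With total counts as the only scaling the log2 fold change of miR-132-3p was -0.25, so whether its difference shrank depends on the scaling and on the list. miR-132-5p stood at 0.795 ± 0.140% and 0.792 ± 0.0538%, and miR-212-3p at 0.973 ± 0.151% and 0.977 ± 0.123%, with mean log2 ratios that differed by 0.0088 and 0.0087 (exact permutation tests, adjusted p = 0.946 for both). Both arms thus differed less between the groups, in their means, when set against the neuron list than in TMM-scaled CPM. With total counts as the only scaling their log2 fold changes were already small, at -0.071 and -0.063. miR-212-5p had a difference of 0.44 (exact permutation test, p = 0.0758, adjusted p = 0.212).

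Some markers of other cells differed between the groups as well. All 5 miRNAs of the myeloid list, led by miR-223-3p of neutrophils and monocytes, were called higher in pMCAO by edgeR, beside 21 of all 479. The lists were chosen with earlier results of these data known, so this count is a description and no separate evidence of a change in cells. The sum of the myeloid list ran from 326 to 790 CPM in sham and from 871 to 3986 CPM in pMCAO. Of 3 oligodendrocyte miRNAs, miR-338-3p alone was called lower, beside 13 of all 479 (2.71%). The sums of the 3 were 4287 to 5244 CPM in sham and 2530 to 4955 CPM in pMCAO. The 2 endothelial miRNAs were not called, with sums of 9192 to 13016 and 9518 to 13653 CPM, and neither were the 2 of 3 erythrocyte miRNAs that could be tested, with sums of 48.6 to 5332 and 637 to 4700 CPM. No listed marker was at 0 in every library. The part of cell makeup in the lower level of miR-132-3p was not tested beyond the ratio to the neuron list.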

How the data were processed

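Small RNA of 6 sham and 5 pMCAO samples was sequenced on an Ion Torrent instrument. The authors removed adapters with the Torrent Suite, retained reads from 20 to 30 bp long, aligned these to mm10 with Bowtie and counted them on miRBase version 21 with HTSeq, and they deposited raw counts of 1907 mature miRNA names per library. Their mapping settings and handling of multiple matches are not given in the sources used here, and PCR copies remain in the counts, without molecular identifiers.

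The counts were analysed in R 4.3.3. edgeR 4.0.16 (filterByExpr, minimum count 10, minimum total count 15, TMM, glmQLFit and glmQLFTest) tested pMCAO against sham without covariates over 479 miRNAs, followed by Benjamini-Hochberg adjustment (threshold 0.05). DESeq2 1.42.0 was an alternative. Standard errors were taken as log2 fold change over the root of F. Ratios used counts plus 0.5 and exact permutation tests over 462 arrangements, and correlations used 100000 permutations. Samples were grouped by their labels, and all 25 within-group pairs of libraries differed by more than sampling noise. Hairpins were placed with GENCODE and RefSeq annotation of GRCm38. Scripts were tested on simulated counts.

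The members and lists were chosen with earlier results of these data known. The text names the 4 arms, called miRNAs and the most abundant 3 of the activity-linked list, the 5 miRNAs most like miR-132-3p, and miR-338-3p, chosen after its value was seen.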

Additional observations from a re-analysis of the deposited data

Results flagged for a closer look

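Far libraries were sought in 24 groups of values, of which chance is expected to mark 1.2, and 2 stood out by Dixon's criterion. The level of miR-132-5p in pMCAO replicate 2, at 11.03 on the log2(CPM + 1) scale, lay below the other 4 pMCAO libraries, which ran from 11.40 to 11.48. The same library had the lowest miR-132-3p level, the lowest neuron list sum (293672 CPM) and the highest myeloid list sum (3986 CPM) of the pMCAO libraries. The part of cell makeup in its low level was not tested. The log2 ratio of miR-212-3p to the neuron list in pMCAO replicate 5, at -7.04, lay below the other 4 pMCAO libraries, which ran from -6.64 to -6.58. In that library the ratio of miR-132-3p to miR-212-3p, 2.59, was the highest of all 11.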

How the results depend on the processing

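Depth limits miR-212-5p most, and every ratio that includes it. Under the 9 other settings miR-132-5p and miR-212-3p kept negative log2 fold changes with adjusted p-values over the threshold (-0.26 to -0.071 and -0.26 to -0.063). The causes of the changes below were not tested. For miR-132-3p the edgeR call was lost with upper-quartile scaling (-0.40, adjusted p = 0.0599), total counts alone (-0.25, 0.188), no filter (-0.45, 0.0542), the replicate number as a block (-0.40, 0.136), at least 10 counts in every library (-0.39, 0.0558) and 1 thinned draw (-0.39, 0.0694). The lowest and highest values without 1 library were -0.463 and -0.343.

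miR-212-5p turned to -0.098 in that thinned draw, but over 100 draws its log2(CPM + 1) differed by 0.19 on average and was negative in 3. In the same draw the ratios of miR-132-3p to miR-132-5p, miR-212-3p to miR-212-5p and miR-132-5p to miR-212-5p differed by -0.20, -0.12 and -0.11 (exact permutation tests, adjusted p = 0.121, 0.468 and 0.468). Thinning was chosen after seeing the data. Without 1 library these ratios differed by -0.214 to -0.149, -0.517 to -0.329 and -0.527 to -0.363, with calls lost in 10, 9 and 9 of 11 cases.

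Called miRNAs numbered 18 with at least 10 counts in every library, 22 with the block, 19 in the thinned draw and 16 to 36 without 1 library. They split into 43 higher and 1 lower with total counts alone, 23 and 4 with upper-quartile scaling, 15 and 3 with at least 10 counts in every library, 25 and 8 with no filter, 19 and 3 with the block and 16 and 3 in the thinned draw, beside 21 and 13 as reported. Of the activity-linked list 0 were called, except miR-124-3p without sham replicate 6 (0 to 1).

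No source used here says whether a replicate number marks a shared litter or day. Deviations of same-numbered libraries correlated by -0.077 to 0.23, over 0.1 for 3 of 5 numbers, and 2 of 5 pMCAO libraries correlated best with their own number. The libraries were not treated as pairs, but these values do not settle whether the numbers mark pairs. With this replicate block the 3 ratios were -0.20, -0.51 and -0.51 (exact sign-flip tests, adjusted p = 0.0833, where 5 pairs allow no unadjusted p under 0.0625).

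Without miR-124-3p in the neuron list the log2 ratios of miR-132-5p and miR-212-3p to it turned to -0.070 and -0.071. Without 1 library they ran from -0.033 to 0.084 and from -0.037 to 0.097. The correlation of miR-132-3p and miR-132-5p lost its call in sham alone (r = 0.81, permutation test, adjusted p = 0.221) and with total counts alone (r = 0.76, adjusted p = 0.0514). By the Spearman coefficient the call was also lost in both, and without the 2 libraries farthest from the median (0.78, permutation test, adjusted p = 0.107). The Pearson r of miR-132-3p and miR-212-5p turned positive within groups (0.35), in sham alone (0.42) and with total counts alone (0.039). That of miR-212-3p and miR-212-5p turned to -0.063 without the 2 libraries farthest from the median.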
